A study of Homo sapiens with 38 samples.

Results

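The aminoacyl-tRNA synthetase genes were examined as a set of 35 genes, 19 for the cytosolic enzymes and 16 for the mitochondrial enzymes, out of 20033 protein-coding genes on chromosomes 1 to 22, X and Y. The set was taken from the names of the enzymes and not from any measured value, although earlier results of these data were known. A member was called occupied in a peak list when a peak lay within 1000 bp of any of its transcript starts in hg38 (GENCODE release 44). The lists come from CUT&RUN, an assay in which an antibody directs a nuclease to a tagged protein in permeabilized cells and the released DNA is sequenced. There were 38 samples in 19 groups of 2 replicates, and the authors joined the replicates of each group into 1 peak list. All lines were U2OS, a human osteosarcoma cell line, and carried a V5-Halo tag knocked into endogenous Sp1. By the study's methods this background is a homozygous knock-in clone.

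The anti-V5 lists therefore profiled endogenous Sp1, and the anti-FLAG lists profiled a doxycycline-inducible transgene placed at the AAVS1 safe harbor locus. The transgenes were wild-type Sp1 (Sp1 WT), the Sp1 DNA binding domain (Sp1 DBD), the intrinsically disordered region (IDR) of EWS joined to the Sp1 DBD (EWS IDR-Sp1 DBD), the CTCF DBD, the Sp1 IDR joined to the CTCF DBD or to LacI, LacI alone, a mutant Sp1 (Sp1 DBD Mutant) and a SNAPf-NLS control. All groups, the Parental line without a transgene included, were labelled as induced with 1 µg/ml doxycycline for 36 hours, sorted, and cultured for a further 36 hours. The mouse anti-FLAG antibody was used on 10 groups and a rabbit anti-FLAG antibody on the Parental line, whereas a rabbit and a mouse anti-V5 antibody were each used on 4 lines: Parental, Sp1 WT, Sp1 IDR-LacI and Sp1 IDR-CTCF DBD.

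Aminoacyl-tRNA synthetases attach each amino acid to its transfer RNA, and protein synthesis in the cytosol and in mitochondria mostly uses separate enzymes encoded by separate nuclear genes. KARS1 and GARS1 provide the lysine and glycine enzymes of both compartments, and EPRS1 joins the glutamate and proline enzymes in a single protein. Several cytosolic synthetases sit in a multi-synthetase complex with the scaffold proteins AIMP1, AIMP2 and EEF1E1. Sp1 is a zinc finger transcription factor that binds the GC box, a sequence common in the promoters of housekeeping genes, and CTCF is an architectural DNA binding protein with a different, longer motif. LacI is a bacterial repressor without natural sites in the human genome.

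The sequences at which the strongest peaks of the family were centred are given here because they show which peaks have a GC box at their summit and which do not. Each line is hg38 sequence on the strand of the named gene, 50 bases to either side of the summit of the strongest Sp1 WT anti-FLAG peak, for the 3 cytosolic (YARS1, TARS1, VARS1) and the 3 mitochondrial members (CARS2, IARS2, EARS2) with the strongest such peaks. Capitals mark the GC box GGGCGG, which reads CCGCCC where it lies on the opposite strand. The windows are chr1:32817604-32817704 (YARS1, minus strand), chr5:33440790-33440890 (TARS1, plus strand), chr6:31796063-31796163 (VARS1, minus strand), chr13:110713151-110713251 (CARS2, minus strand), chr1:220094087-220094187 (IARS2, plus strand) and chr16:23557464-23557564 (EARS2, minus strand).
YARS1: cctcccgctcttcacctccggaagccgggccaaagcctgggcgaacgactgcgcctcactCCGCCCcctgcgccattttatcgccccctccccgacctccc
TARS1: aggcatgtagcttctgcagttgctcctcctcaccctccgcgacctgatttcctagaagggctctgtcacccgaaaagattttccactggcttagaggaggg
VARS1: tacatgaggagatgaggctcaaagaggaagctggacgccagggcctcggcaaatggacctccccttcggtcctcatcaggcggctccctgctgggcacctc
CARS2: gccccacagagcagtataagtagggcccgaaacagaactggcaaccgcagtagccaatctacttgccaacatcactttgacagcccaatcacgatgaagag
IARS2: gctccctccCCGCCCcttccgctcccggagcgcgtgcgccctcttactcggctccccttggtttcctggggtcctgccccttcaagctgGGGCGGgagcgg
EARS2: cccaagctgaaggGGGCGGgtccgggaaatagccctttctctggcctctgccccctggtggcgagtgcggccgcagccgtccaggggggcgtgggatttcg
A GC box was present in the windows of YARS1, IARS2 and EARS2, with 2 in that of IARS2, and absent from those of TARS1, VARS1 and CARS2. In the wider peaks the counts of GC boxes were 6 at YARS1, 1 at TARS1, 7 at VARS1, 11 at CARS2, 8 at IARS2 and 5 at EARS2.

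Another 3 sequences show promoters that behaved differently. The PARS2 window (chr1:54764655-54764755, minus strand) is centred on its peak in the Parental rabbit anti-V5 list and was chosen after its values had been seen, since PARS2 was occupied in every anti-V5 list and in no anti-FLAG list. The HARS2 window (chr5:140691205-140691504, plus strand) is a promoter shared by the cytosolic and the mitochondrial histidine enzymes, whose starts lie 15 bp apart at the closest and face in opposite directions. The MARS2 window (chr2:197705119-197705418, plus strand) has the most GC boxes among the windows of members occupied in no list. The last pair are RefSeq promoter windows from 250 bases before to 50 bases after a start, and they were identical to the hg38 reference.
PARS2: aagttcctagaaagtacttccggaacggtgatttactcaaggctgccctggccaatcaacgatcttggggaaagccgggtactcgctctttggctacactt
HARS2: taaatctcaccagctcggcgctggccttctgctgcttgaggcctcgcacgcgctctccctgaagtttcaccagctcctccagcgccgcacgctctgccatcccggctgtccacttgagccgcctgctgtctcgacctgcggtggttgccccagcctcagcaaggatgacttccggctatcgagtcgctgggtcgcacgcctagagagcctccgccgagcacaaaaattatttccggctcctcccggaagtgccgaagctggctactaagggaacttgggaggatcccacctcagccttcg
MARS2: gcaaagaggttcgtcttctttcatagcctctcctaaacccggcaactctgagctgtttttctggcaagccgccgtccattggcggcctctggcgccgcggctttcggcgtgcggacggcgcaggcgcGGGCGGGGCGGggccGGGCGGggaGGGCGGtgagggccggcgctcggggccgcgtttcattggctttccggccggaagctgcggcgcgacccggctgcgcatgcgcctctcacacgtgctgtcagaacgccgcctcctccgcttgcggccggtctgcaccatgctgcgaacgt
The PARS2 and HARS2 windows held no GC box, and the MARS2 window held 4.

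To ask how often wild-type Sp1 was found at these promoters, the 5151 peaks of the Sp1 WT anti-FLAG list were assigned to genes. Of the 35 members, 11 were occupied (31.4%, 95% Wilson interval 18.6 to 48.0%), against 23.7% of all protein-coding genes. The 2 classes stood on either side of that background. Among the mitochondrial members 7 of 16 were occupied (43.8%, 23.1 to 66.8%), namely CARS2, EARS2, FARS2, IARS2, LARS2, NARS2 and SARS2, the mitochondrial enzymes for cysteine, glutamate, phenylalanine, isoleucine, leucine, asparagine and serine. Among the cytosolic members 4 of 19 were occupied (21.1%, 8.51 to 43.3%), namely FARSB, the beta subunit of the phenylalanine enzyme, and TARS1, VARS1 and YARS1, the threonine, valine and tyrosine enzymes. FARSA, which encodes the other subunit of the phenylalanine enzyme, was not occupied, and its nearest Sp1 WT peak lay 3984 bp from a start.

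The intervals of the 2 classes overlapped, and both span the background of 23.7%, that of the mitochondrial members only just (lower limit 23.1%). They describe counting over genes only. Each list joins its replicates, so no test between lists or between classes was made.

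**Figure D1:**
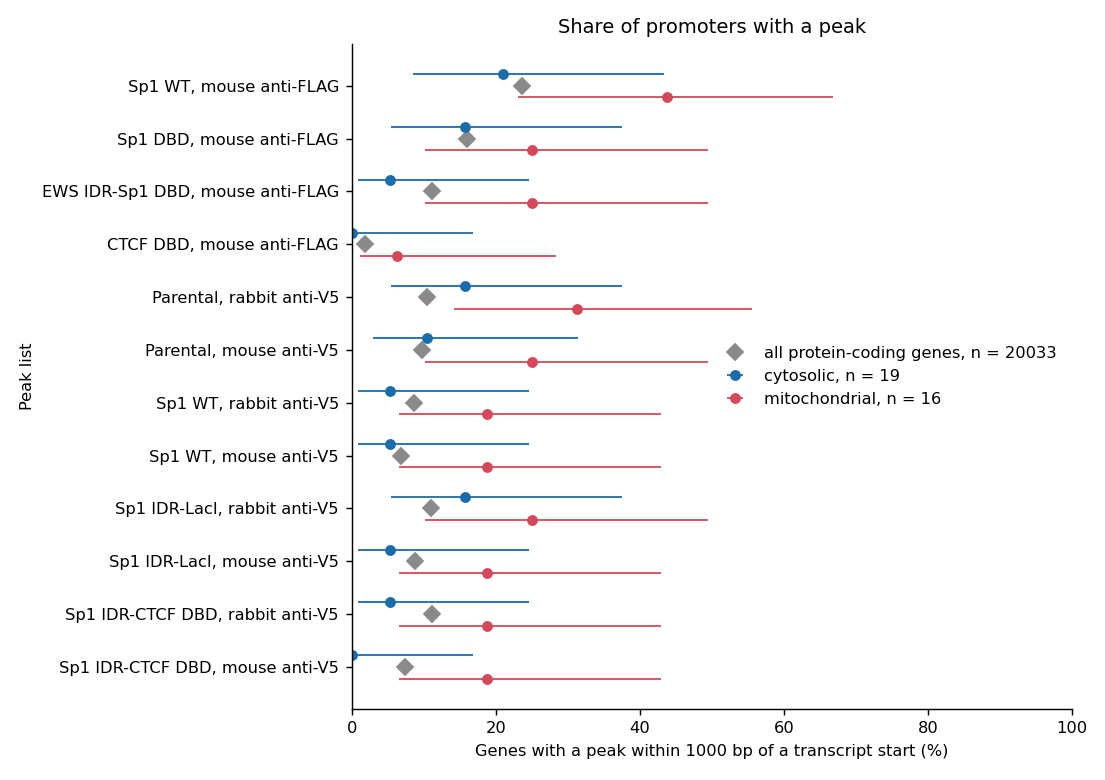
Share of promoters with a peak within 1000 bp of a transcript start (%, horizontal axis) in the 12 lists that held any member, for cytosolic members (blue), mitochondrial members (red) and all protein-coding genes (grey diamonds); bars are 95% Wilson intervals over genes. The mitochondrial share lies above the cytosolic share in all 12 lists, with wide overlapping intervals. The lists are not independent: 8 of them profile endogenous Sp1, and CARS2, EARS2 and PARS2 are in all 8.

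Strength was described by the −log10 p-value of each peak, which ranks peaks within a list and is not comparable in level between lists. A gene's percentile is its place among the occupied protein-coding genes of that list, with 100 the strongest. YARS1 had the strongest peak of the family in the Sp1 WT list (chr1:32817332-32818615), with −log10 p of 50.1 in the first and 51.1 in the second replicate of the deposited list, a percentile of 91.6. CARS2 followed with 41.8 and 57.4 (percentile 86.5), and TARS1 with 24.3 and 35.6 (61.6; chr5:33440691-33441360). These 3 members ranked in the upper part of the list, and YARS1 was the member with the closest replicate values.

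The next group lay near the middle of the list. IARS2 had 20.0 and 45.3 (percentile 49.96; chr1:220093492-220094796), and EARS2 had 19.9 and 38.8 (49.4; chr16:23557052-23557752). FARS2 had 17.4 and 39.0 (40.95; chr6:5260295-5261671). In all 3 the second replicate gave the larger value, as it did for 11 of 11 occupied members and for 96.9% of all Sp1 WT peaks.

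Weaker peaks marked the remaining members. VARS1 had 16.9 and 36.7 (percentile 39.0; chr6:31795491-31796274), FARSB 16.1 and 29.9 (35.1; chr2:222656036-222656766), and SARS2 15.8 and 38.7 (34.3; chr19:38930392-38931095). NARS2 with 10.9 and 17.97 (11.9; chr11:78574696-78575329) and LARS2 with 9.13 and 24.1 (3.74; chr3:45387999-45388567) were near the bottom of the list. The median percentile was 40.95 over the 11 members, 50.3 over the 4 cytosolic and 40.95 over the 7 mitochondrial members. The order of the class medians was not the same in other lists: of the 10 lists with members of both classes the mitochondrial median was the higher in 7, for example 62.6 against 34.7 with the Sp1 DBD, and the cytosolic median in 3, for example 87.8 (YARS1 alone) against 18.8 with EWS IDR-Sp1 DBD. Ranked by the second replicate alone, the median over the 11 members was 57.1.

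**Figure D2:**
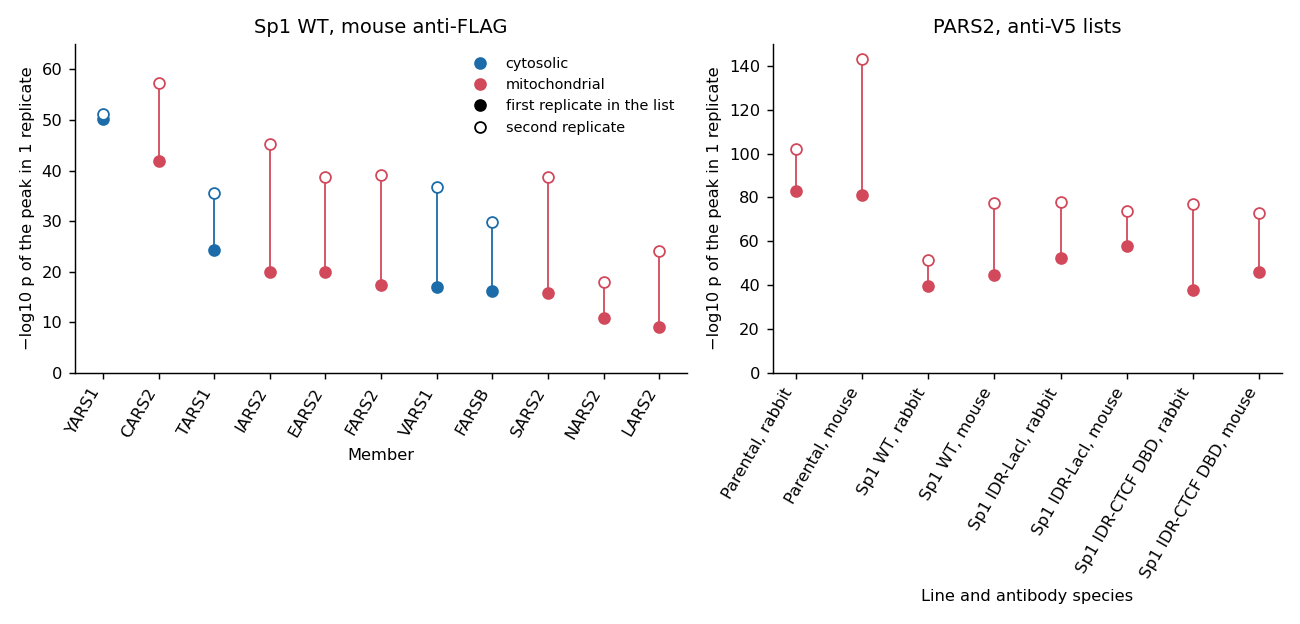
Left, −log10 p of the Sp1 WT anti-FLAG peak at each occupied member in the first (filled) and the second (open) replicate of the deposited list, cytosolic in blue and mitochondrial in red. Right, the same for PARS2 in the 8 anti-V5 lists, where all values lie between 38.0 and 143.

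The peaks sat close to the starts. The median distance from summit to nearest transcript start was 133 bp over the 11 Sp1 WT peaks, with a range of 5 to 361 bp, and 6 of the 11 summits lay upstream of that nearest start. Against the main start (the Ensembl canonical transcript) 9 of the 11 lay upstream, CARS2 with its distant peak among them. The peaks had a median width of 731 bp (569 to 1857 bp), against 986 bp for all 3942 Sp1 WT peaks at promoters. The occupancy of the members did not depend on the distance chosen, since each occupied member had a peak within 205 bp of a start in its list (the farthest being VARS1 in the Sp1 DBD list). A stronger CARS2 peak in the Sp1 DBD list lay 449 bp from a start, and the nearest that did not count lay 3322 bp from one (QARS1, the glutamine enzyme, in the Sp1 WT list).

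CARS2 was a special case in its geometry. It has 32 annotated starts, the closest of which lies 97 bp from a start of ING1, a chromatin regulator. Its strongest Sp1 WT peak (chr13:110711989-110713845) was centred 7085 bp upstream of the main start, and another peak (chr13:110706015-110707429), with 34.2 and 58.3, was centred 190 bp upstream of it. Both positions were also occupied in the Sp1 DBD list (6943 and 158 bp upstream), where a further, stronger peak (39.4 and 40.7) was centred 9487 bp upstream, and in the EWS IDR-Sp1 DBD list (7210 and 158 bp upstream). A peak at the main start of CARS2 was present in all 8 anti-V5 lists, centred 134 to 195 bp upstream.

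**Figure D3:**
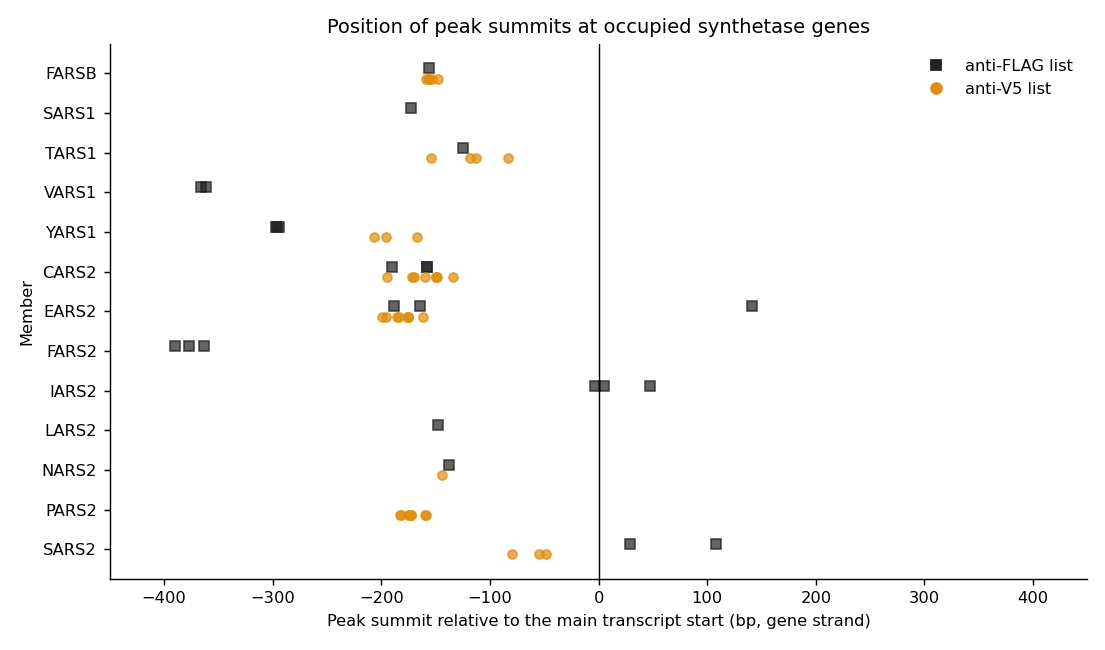
Distance of peak summits from the main transcript start (bp on the gene's strand, negative upstream) for each occupied member, anti-FLAG lists as black squares and anti-V5 lists as orange circles; CARS2 peaks centred 6934 bp or more upstream lie outside the axis. Most summits lie upstream of the start, and those of YARS1 fall in separate anti-FLAG and anti-V5 groups.

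Constructs that share the Sp1 DBD were compared next, to see which of these promoters were also found without the Sp1 IDR. In the Sp1 DBD list (3277 peaks) 7 members were occupied, 3 cytosolic and 4 mitochondrial, or 20.0% against a background of 16.1%. In the EWS IDR-Sp1 DBD list (2535 peaks) 5 members were occupied, 1 cytosolic and 4 mitochondrial, or 14.3% against 11.1%. The shares followed the background down as the lists became shorter. Cut to the 2535 strongest peaks, the Sp1 WT and Sp1 DBD lists each held 5 members, as the EWS IDR-Sp1 DBD list did, and the Sp1 WT share was then 14.3% against 12.8% of all protein-coding genes.

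The same 5 promoters, YARS1, CARS2, EARS2, FARS2 and IARS2, were occupied by all 3 constructs, which is 45.5% of the 11 Sp1 WT members against 32.4% of all Sp1 WT genes. All of these but IARS2 share a promoter with another protein-coding gene, so their peaks cannot be given to either gene. VARS1 was shared by Sp1 WT and Sp1 DBD. The overlap of Sp1 WT and Sp1 DBD, 6 of 11 members, was the same share (54.5%) as over all protein-coding genes occupied by Sp1 WT. A further 5 members, FARSB, TARS1, LARS2, NARS2 and SARS2, were occupied by Sp1 WT and by neither of the shorter lists, 45.5% against 40.1% of all Sp1 WT genes.

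YARS1 kept its high rank in the 3 lists, with percentiles of 91.6, 91.1 and 87.8 and replicate values of 37.8 and 41.7 with the Sp1 DBD and 32.0 and 31.1 with EWS IDR-Sp1 DBD. The strongest CARS2 peak ranked at 86.5, 92.1 and 80.2, but these were different peaks, centred 7085, 9487 and 158 bp upstream of the main start. At the main start itself the replicate values of CARS2 were 34.2 and 58.3 with Sp1 WT, 35.4 and 44.2 with the Sp1 DBD, and 25.7 and 38.3 with EWS IDR-Sp1 DBD. IARS2 ranked higher with the Sp1 DBD (35.4 and 25.7, percentile 75.4) than with EWS IDR-Sp1 DBD (13.3 and 20.3, 27.4). FARS2 with 16.8 and 21.8 (49.9) in the Sp1 DBD list and 11.1 and 23.1 (10.2) in the EWS IDR-Sp1 DBD list ranked lower with the latter, and so did EARS2 with 11.8 and 14.5 (20.3) and 10.3 and 14.3 (2.74). TARS1, in contrast, ranked at 61.6 with Sp1 WT and was in neither of the other lists.

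SARS1, the cytosolic serine enzyme, was the only member occupied by the Sp1 DBD and not by Sp1 WT. Its peak (chr1:109213633-109214099) was weak, with 14.3 and 10.9 and a percentile of 14.6, and had no GC box within 100 bp of its summit. Over all protein-coding genes, 632 (3.15%) showed this pattern.

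Constructs without the Sp1 DBD were almost absent from the family. The CTCF DBD list (649 peaks) held SARS2 alone, 1 of 35 members (2.86%) against a background of 1.88%. Its peak (chr19:38930401-38930870) had 8.72 and 15.2, and its summit lay 108 bp downstream of the main start, compared with 29 bp downstream for Sp1 WT. SARS2 shares this promoter with MRPS12, which encodes a mitochondrial ribosomal protein and whose start lies 181 bp away, so the peak cannot be given to either gene. The Sp1 IDR-CTCF DBD anti-FLAG list (166 peaks) held no member, against a background of 0.574%.

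No member was occupied in the anti-FLAG lists of Sp1 IDR-LacI (background 0.00499%, a single gene), LacI (0.0%), Sp1 DBD Mutant (0.0%), SNAPf-NLS (0.0%) or the Parental line with the mouse (0.0%) and the rabbit antibody (0.0%). These 6 lists held between 22 and 295 peaks and almost none at any promoter, so their zero counts say little about the synthetase genes in particular.

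**Figure D4:**
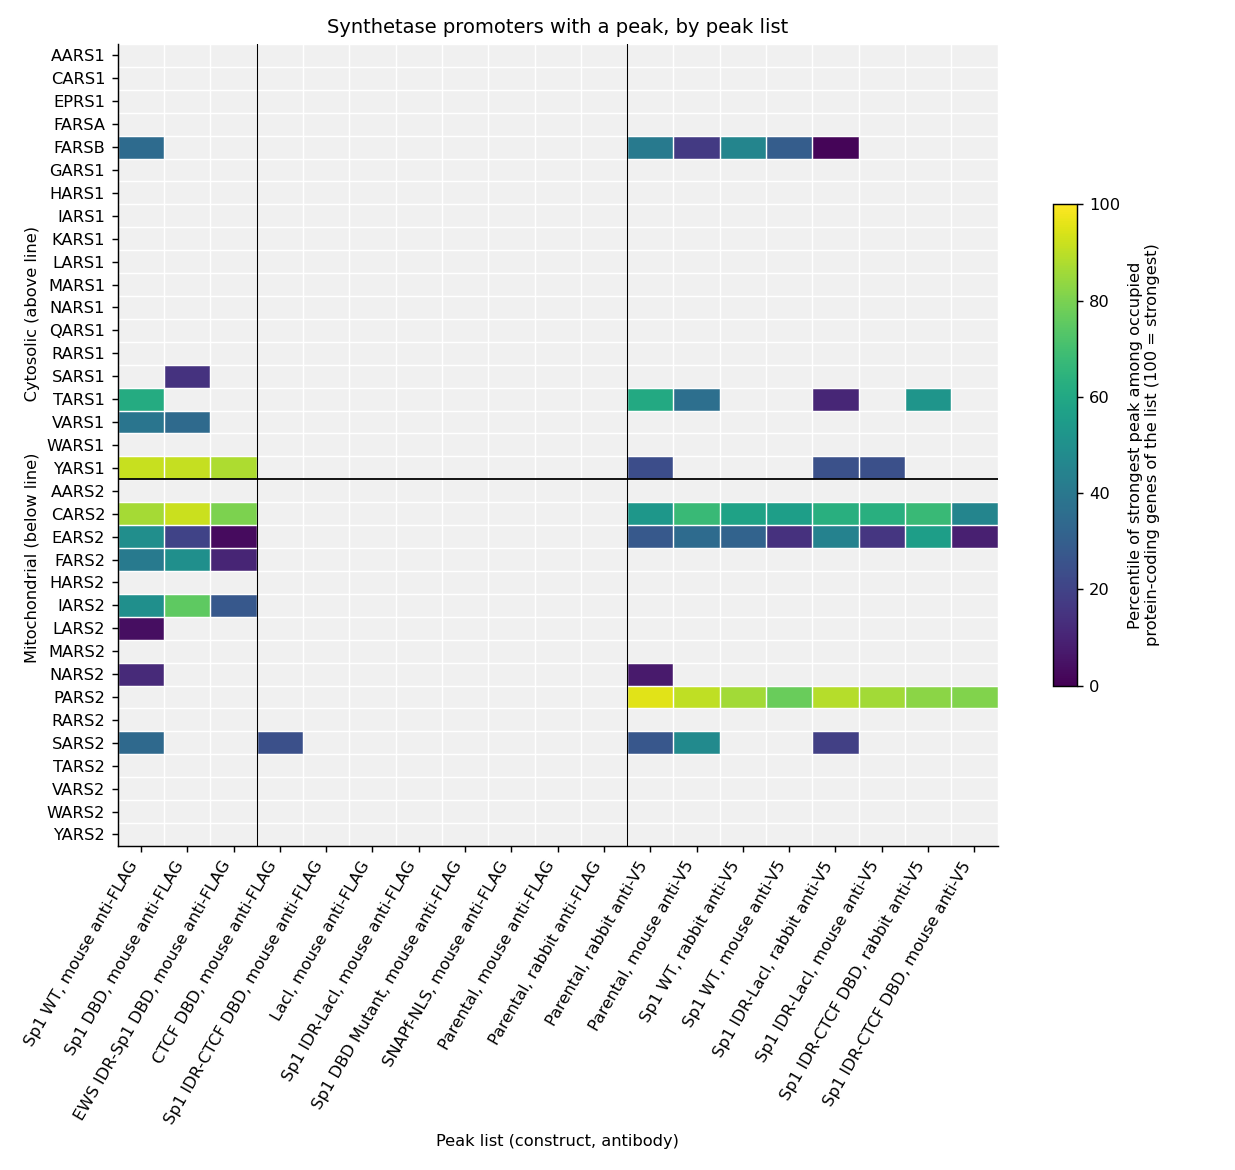
Percentile of the strongest peak of each of the 35 members (rows, cytosolic above the line) in each of the 19 peak lists (columns), with 100 the strongest occupied gene of a list and light grey for no peak. YARS1 and CARS2 are high in the 3 lists of constructs with the Sp1 DBD, PARS2 is high in the 8 anti-V5 lists only, and 22 rows are empty.

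Endogenous Sp1 was then examined through the anti-V5 lists. In the Parental line 8 members were occupied with the rabbit antibody (22.9% against 10.4% of all protein-coding genes) and 6 with the mouse antibody (17.1% against 9.75%). The 8 were FARSB, TARS1, YARS1, CARS2, EARS2, NARS2, PARS2 and SARS2, and no other member was found in any anti-V5 list. With the rabbit antibody 4 members were occupied in the Sp1 WT line (11.4% against 8.66%), 7 in the Sp1 IDR-LacI line (20.0% against 11.1%) and 4 in the Sp1 IDR-CTCF DBD line (11.4% against 11.1%). With the mouse antibody the counts were 4 (11.4% against 6.81%), 4 (11.4% against 8.8%) and 3 (8.57% against 7.34%).

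In the Sp1 IDR-CTCF DBD line the share of members was thus near the background with either antibody, but with the rabbit antibody this depended on list length. Cut to the 1332 strongest peaks, its rabbit list still held 4 members (11.4% against 7.11%). The rabbit lists of the Parental and Sp1 WT lines then also held 4 (11.4% against 7.22% and 6.6%), and that of the Sp1 IDR-LacI line 3 (8.57% against 7.2%). In the full lists mitochondrial members numbered 5 of 16 with Parental rabbit (31.2%, 14.2 to 55.6%) and 3 or 4 in the other 7 anti-V5 lists. Cytosolic members numbered 3 of 19 in the Parental rabbit list (15.8%, 5.52 to 37.6%) and 0 to 3 in the others. Only CARS2, EARS2 and PARS2 were in all 8 lists, as were 845 of all protein-coding genes (4.22%).

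Of the 11 members occupied by Sp1 WT with the anti-FLAG antibody, 7 (63.6%) were in at least 1 anti-V5 list, against 52.4% of all Sp1 WT genes. The other 4 (36.4%, against 47.6% of all Sp1 WT genes) were VARS1, FARS2, IARS2 and LARS2. FARS2 and IARS2 were therefore occupied by all 3 constructs with the Sp1 DBD and were in no anti-V5 list. The share of all protein-coding genes with that joint pattern was not counted. The anti-V5 lists were shorter, with 1332 to 2172 peaks against 5151 in the Sp1 WT anti-FLAG list.

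YARS1 differed in rank and in position between antibodies to different tags. Its percentile was 23.7 to 24.9 in the 3 anti-V5 lists that held it, against 87.8 or more in the anti-FLAG lists. Its summits lay 294 to 297 bp upstream of the main start in the 3 anti-FLAG lists and 167 to 207 bp upstream in the 3 anti-V5 lists. The peaks were 1038 to 1284 bp wide in the former and 508 to 854 bp in the latter, at a promoter shared with S100PBP. How many of all promoter peaks show such a shift was not counted. The SARS2 summits were 48 to 80 bp upstream in 3 anti-V5 lists and 29 bp downstream in the Sp1 WT anti-FLAG list.

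The FARSB summit hardly moved, lying 148 to 159 bp upstream in the 6 lists that held it. TARS1 summits lay 83 to 154 bp upstream in 5 lists. EARS2 summits lay 162 to 199 bp upstream in 10 of its 11 lists, and in the EWS IDR-Sp1 DBD list the summit lay 141 bp downstream.

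PARS2, the mitochondrial proline enzyme, had the strongest anti-V5 peak of the family in each of the 8 lists. In the Parental line its replicate values were 82.8 and 102 with the rabbit antibody (chr1:54764474-54764983) and 81.3 and 143 with the mouse antibody. In the Sp1 WT line they were 39.6 and 51.4 with the rabbit and 44.8 and 77.4 with the mouse antibody. The Sp1 IDR-LacI line gave 52.3 and 78.0, and 58.1 and 73.8, and the Sp1 IDR-CTCF DBD line gave 38.0 and 77.2, and 46.2 and 73.1. In each of the 8 lists and in each replicate the PARS2 value exceeded that of every other member.

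The rank of PARS2 was highest in the Parental line with either antibody. Its percentile was 95.4 there and 82.5 to 89.1 in the other lines with the rabbit antibody, and 90.4 and 77.3 to 86.0 with the mouse antibody. The summits lay 159 to 183 bp upstream of its only annotated start, and no start of another protein-coding gene lay within 1000 bp.

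PARS2 was in none of the 11 anti-FLAG lists, and the nearest Sp1 WT anti-FLAG peak was 48165 bp away. It was also in none of them when peaks within 10000 bp were counted. Of all protein-coding genes, 23 (0.115%) were in all 8 anti-V5 lists and in no anti-FLAG list. All lines profiled here carry the V5 tag, so an anti-V5 list from untagged cells was not among the 19 lists and could not be set beside these values. The summit-centred sequence printed above has no GC box, although 1 lies within 100 bp of the summit and 2 within the peak in each of the 8 lists.

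Many synthetase genes share a promoter with a neighbour, and a peak there cannot be given to either gene. For 13 of 35 members (37.1%) a start lay within 1000 bp of a start of another protein-coding gene, against 23.3% of all protein-coding genes. The pairs were AARS1 with DDX19B, KARS1 with TERF2IP, MARS1 with ARHGAP9, VARS1 with VWA7, WARS1 with WDR25, YARS1 with S100PBP, CARS2 with ING1, EARS2 with UBFD1, FARS2 with LYRM4, RARS2 with ORC3, SARS2 with MRPS12, and HARS1 with HARS2. Members had a median of 13 annotated starts, against 5 for all protein-coding genes.

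Shared promoters were occupied by Sp1 WT more often, in the family and in general. Of the 13 shared members 6 were occupied (46.2%, against 36.3% of all shared genes), and of the 22 unshared members 5 were (22.7%, against 19.9%). Without the shared promoters the mitochondrial count was 3 of 10 (30.0%) and the cytosolic count 2 of 12 (16.7%). The mitochondrial share was then higher in 9 of the 12 lists that held any member, equal in 1, and lower than the cytosolic share in 2, the Parental mouse anti-V5 and the Sp1 IDR-LacI rabbit anti-V5 lists.

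The 22 members without a peak in any list included the whole multi-synthetase complex. None of the 7 genes of its synthetases, EPRS1, IARS1, KARS1, LARS1, MARS1, QARS1 and RARS1, was occupied in any list. The Sp1 WT peaks nearest to them lay 3322 bp (QARS1) and 5075 bp (MARS1) from a start. Of all protein-coding genes 70.4% were likewise in no list, and of the cytosolic members 73.7%. In the Sp1 WT list the Wilson interval of 0 of 7 was 0.0 to 35.4%, which includes the background of 23.7%. The zero count therefore does not set the complex apart from other genes. The other cytosolic members without a peak were AARS1, CARS1, FARSA, GARS1, HARS1, NARS1 and WARS1. The mitochondrial members without a peak were AARS2, HARS2, MARS2, RARS2, TARS2, VARS2, WARS2 and YARS2. In all, 13 members (37.1%) were in at least 1 of the 19 lists, 5 cytosolic (26.3%) and 8 mitochondrial (50.0%), against 29.6% of all protein-coding genes.

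Genes whose products work with the synthetases were described in the same way. Of 13 partner genes 3 (23.1%) were occupied by Sp1 WT, close to the 23.7% of all protein-coding genes. These were AIMP2, a scaffold protein of the complex, with a very weak peak (8.63 and 19.5, percentile 0.86), and DTD1 and DTD2, which remove wrongly attached amino acids (36.4 and 37.6, percentile 81.7, and 9.13 and 17.0, percentile 3.43). EEF1E1, another scaffold protein, was in the Sp1 IDR-LacI rabbit anti-V5 list only (10.4 and 17.9). AIMP1, GATB, GATC, QRSL1, MTFMT, TRNT1, PSTK, SEPSECS and AARSD1 were in no list.

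The ribosomal protein genes, the other large sets of the translation machinery, gave Sp1 WT shares, against the same 23.7%, of 32.1% (25 of 78, 22.7 to 43.0%) for mitochondrial and 21.6% (19 of 88, 14.3 to 31.3%) for cytosolic proteins. The order of the compartments was thus as in the synthetase genes, again with overlapping intervals.

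To see what the promoters hold in sequence, 5 short motifs were searched on both strands of the RefSeq promoter windows, which were found for 30 members and for 15344 protein-coding genes. LARS1, VARS1, YARS1, AARS2 and VARS2 have no window in the table. The 30 members had 39 windows, and a gene counted when any of its windows held a match. Shares of windows below are therefore shares of genes. The GC box (GGGCGG) was in 23 of 30 members with a window (76.7%), against 65.1% of all genes with a window. It was in 12 of 16 cytosolic (75.0%) and 11 of 14 mitochondrial windows (78.6%), so its presence differed little between the classes.

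The median of the highest number of GC boxes in a window of each gene was 1.0 in the cytosolic and 1.5 in the mitochondrial class. The highest counts were 2 among the cytosolic windows, which do not include YARS1 and VARS1, and 6 among the mitochondrial windows, at CARS2, FARS2 and IARS2. Over all protein-coding genes the share occupied by Sp1 WT was 9.02% with no GC box, 24.2% with 1, 32.9% with 2, 38.9% with 3 and 43.1% with 4 or more. Of the 4 members with 4 or more GC boxes, CARS2, FARS2 and IARS2 were occupied and MARS2, whose window is printed above, was not. Of the 7 members with none, FARSB was occupied.

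Within 100 bp of the Sp1 WT summit a GC box was found at 8 of the 11 occupied members (72.7%), against 75.0% of all 3942 promoter peaks. All 7 mitochondrial peaks had 1 or more, and of the 4 cytosolic peaks that of YARS1 did. FARSB, TARS1 and VARS1 had none there, with 1, 1 and 7 in the whole peak.

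The clearest differences from other promoters were in motifs of other factors. The C/EBP-ATF element (TGATGNAA), a composite site bound by ATF4 with a C/EBP partner in the response to amino acid shortage, was in 8 of 30 member windows (26.7%) against 3.63% of all windows. It was in 7 of 16 cytosolic windows (43.8%), those of AARS1, CARS1, GARS1, IARS1, MARS1, NARS1 and TARS1, and in 1 of 14 mitochondrial windows (7.14%), that of YARS2. Of these 8 genes TARS1 alone was occupied in any list, as were 29.6% of all protein-coding genes. That share was not counted for all genes with the element. By Sp1 WT occupancy the element was in 1 of 9 occupied (11.1%) and 7 of 21 unoccupied members (33.3%). Over all protein-coding genes the element was in 2.33% of windows occupied by Sp1 WT and 4.06% of the others.

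The ETS core (CCGGAAG), bound by ETS family factors, was in 16 of 30 member windows (53.3%) against 16.7% of all windows, at 56.2% in the cytosolic and 50.0% in the mitochondrial class. It was as frequent in members occupied in any list (6 of 11) as in those occupied in none (10 of 19). It is present 2 times in the HARS2 window, in which no GC box was found.

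The NRF1 core (GCGCANGCG), named for a regulator of nuclear genes for mitochondrial proteins, was in 6 of 30 windows (20.0% against 12.7%), 3 of them cytosolic and 3 mitochondrial. By Sp1 WT occupancy it was in 3 of 9 occupied and 3 of 21 unoccupied members, against 17.3% of occupied and 11.1% of unoccupied windows over all protein-coding genes. The CCAAT box (CCAAT) was in 16 of 30 windows (53.3% against 42.5%), 43.8% of the cytosolic and 64.3% of the mitochondrial ones. The motifs are short letter strings and a match does not show that a factor was bound.

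**Figure D5:**
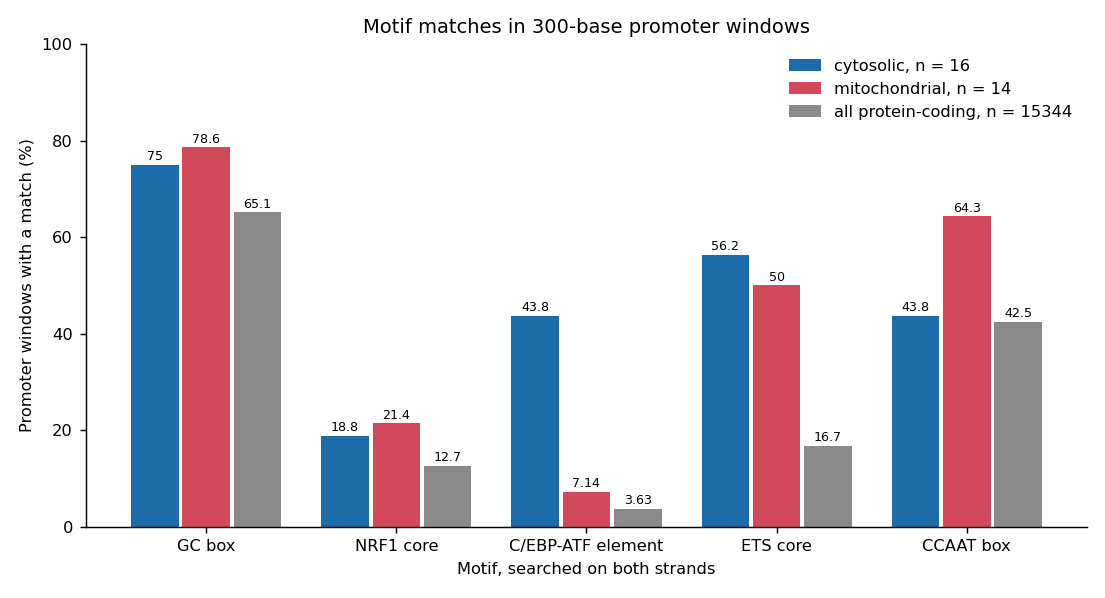
Share of genes with a match to each motif on either strand in any of their promoter windows of 300 bases (%), for 16 cytosolic members (blue), 14 mitochondrial members (red) and 15344 protein-coding genes (grey). The GC box is similarly frequent in the classes, whereas the C/EBP-ATF element is in 43.8% of cytosolic and 7.14% of mitochondrial members with a window.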

How the data were processed

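The data are 38 CUT&RUN samples that the sample labels place in 19 groups, each a line with an antibody and each with 2 replicates. Reads had been trimmed by the authors (Cutadapt 2.6), mapped to the hg38 assembly (Bowtie2 2.3.5.1) and cleared of duplicates (SAMtools 1.9), per the study's methods. Peak calling used MACS3, with 2.2.7.1 stated as its version, and control replicates that had been merged. Peaks were kept when reproducible between replicates at an irreproducible discovery rate of at most 0.1. The −log10 p-values of each peak and of each of its replicates are the authors', and the deposited value of the joined peak is the smaller of the replicate values. Which labelled replicate came first is not stated. The score used for stricter lists is the −log10 of the global irreproducible discovery rate that the authors deposited. Read numbers were not used here, so the depth behind each list is unknown and a missing peak is not shown to be missing binding. Another 6 deposited tables, the authors' own differential regions of Sp1 WT against other constructs with likelihood ratios, were not used.

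Peaks were assigned to the protein-coding genes of GENCODE 44 in Python 3.11.15 with pandas 2.3.3, by any overlap with the 1000 bp to either side of any transcript start. The assignment was tested on simulated data and checked against bedtools 2.31.1, which differed in 0 of 19 lists. A gene took its strongest peak, and percentiles are mid-ranks. Wilson intervals are from the counts of genes and cover counting only. Genes of a family are not replicates, so nothing was tested. The members, related gene lists and motifs were chosen with earlier results of these data known. Values of both replicates are given for the members with the strongest Sp1 WT peaks of each class, up to 6 of each, and for members occupied only in other lists or by a construct without the Sp1 DBD. Those of the weakest mitochondrial member are given as well. Promoter windows are from the RefSeq table (hg38), and summit sequences from the hg38 reference read with pysam 0.24.0. Alternatives were other distances, the summit in place of the peak, stricter and equal-length lists, 1 start per gene, leaving out shared promoters, ranking by either replicate, and other windows for the GC box.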

Additional observations from a re-analysis of the deposited data

How the results depend on the processing

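Distances of 500 and 2000 bp, the summit in place of the whole peak, and 1 start per gene left the 11 members of the Sp1 WT list, the 7 of the Sp1 DBD list, the 5 of the EWS IDR-Sp1 DBD list, the 8 of the Parental rabbit anti-V5 list and the 6 of the Parental mouse anti-V5 list at the same counts. Lists of equal length gave 5 members for Sp1 WT (2 cytosolic and 3 mitochondrial) against a background of 12.8%, and 4 for Parental rabbit anti-V5 against 7.22%. At an irreproducible discovery rate of at most 0.05 the EWS IDR-Sp1 DBD count was 3 (8.57% against a background of 8.72%). At 0.01 it was 2 (5.71% against 3.87%). The counts at 0.01 were 3 for Sp1 DBD (8.57% against 7.14%) and 4 for Parental rabbit anti-V5 (11.4% against 6.27%). The CTCF DBD count was then 0 (background 0.449%), since SARS2 was lost. Sp1 WT kept 10 members at 0.05 (28.6% against 20.9%) and 9 at 0.01 (25.7% against 13.3%). Without members that share a promoter the counts were 5 for Sp1 WT (2 cytosolic and 3 mitochondrial), 2 for Sp1 DBD, 1 for EWS IDR-Sp1 DBD, 4 for Parental rabbit and 3 for Parental mouse anti-V5. Over all protein-coding genes without a shared promoter the Sp1 WT share was 19.9%, and it was not counted for the other lists. The shorter lists and the smaller set lower these counts by construction. The mitochondrial share was above the cytosolic share in all 12 lists that held a member at each distance, and under leaving out shared promoters in 9 of them. These lists are not independent, since 8 of them profile endogenous Sp1.

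The median Sp1 WT percentile was 40.95 by the first and 57.1 by the second replicate value. PARS2 was in 8 anti-V5 and 0 anti-FLAG lists under each setting tried for it, which was chosen after its values were seen, 10000 bp included. A GC box lay within 500 bases of the main start in 94.3% of members and 76.9% of all protein-coding genes. Ranking by the signal value was not run, because the deposited column holds no signal. Leaving out a replicate could not be done on joined lists. No paired analysis was possible because each list already joins its replicates and no result comes from a test.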

Other observations

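The 23 protein-coding genes found in all 8 anti-V5 lists and in no anti-FLAG list were looked at because PARS2 was among them. Ordered by their median percentile over the anti-V5 lists, MYH9, a non-muscle myosin heavy chain, came first at 96.95, and EGLN2, an oxygen-sensing prolyl hydroxylase, came next at 93.8. PARS2 was number 6 at 86.2, with a range of 77.3 to 95.4. TMEM256, TMEM256-PLSCR3 and NLGN2 had the same median of 92.5 and share a peak, as do NUP62 and ATF5 at 78.8, SBDS and TYW1 at 62.5, and HAUS8 and MYO9B at 26.5. ATF5 encodes a stress-induced transcription factor, and TYW1 modifies the phenylalanine transfer RNA. No other synthetase gene and no partner gene was in this group, which was picked by its pattern, so these values are a description.

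YARS1 and PARS2 differed in opposite directions between an anti-FLAG and an anti-V5 list. YARS1 had the highest anti-FLAG percentile of the family with Sp1 WT (91.6) and a percentile of 23.7 with the rabbit anti-V5 antibody in the Parental line. PARS2 had 95.4 in the latter list and no peak in the former. The same held within the Sp1 WT line, which was profiled for both tags: YARS1 had its anti-FLAG peak there and was in neither anti-V5 list, whereas PARS2 had percentiles of 86.3 (rabbit) and 77.3 (mouse) with anti-V5 and no anti-FLAG peak. Within that line the protein detected and the antibody cannot be told apart. Its anti-FLAG list held 5151 peaks and its anti-V5 lists 1790 (rabbit) and 1332 (mouse). The share of all protein-coding genes with either pattern in that line was not counted. VARS1, FARS2, IARS2 and LARS2 also had a Sp1 WT anti-FLAG peak and were in no anti-V5 list of any line, as were 47.6% of all Sp1 WT genes.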
